A study of Mus musculus with 4 samples.

Results

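The replication-dependent histone genes were examined in RNA sequencing libraries of 2 clonal mouse lines. Both were established as progenitors of interstitial cells of Cajal, which pace the contractions of the gut wall. The histone genes were taken by name, as the rows named Hist1h to Hist4h followed by a histone type, and made up 68 of the 23358 gene rows in each deposited table. On mm10, 54 of them lay in the Hist1 cluster (chr13:21715763-23934851), 10 in Hist2 (chr3:96219916-96270192), 3 in Hist3 (chr11:58948911-58956674) and 1 in Hist4 (chr6:136801553-136804431). By type they were 6 H1, 18 H2A, 19 H2B, 12 H3 and 13 H4 rows, 1 of them the H2B pseudogene Hist3h2bb-ps.

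Core histones H2A, H2B, H3 and H4 form the protein spool of the nucleosome, and the linker histone H1 binds the DNA between nucleosomes. The genes typically have no introns and are transcribed mainly in S phase, when copied DNA has to be packaged. Their main transcripts end just after a conserved stem-loop, bound by Slbp, and carry no poly(A) tail. Libraries made by poly(A) selection, as here, are not built to capture that form. Polyadenylated transcripts are known for some of these genes, among them Hist1h1c, Hist1h2bc, Hist1h2ac and Hist2h2be or their human counterparts.

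The line 2xSCS70 came from stomach muscle layers of H-2Kb-tsA58 mice, whose transgene encodes a temperature-sensitive large T antigen of SV40 and is driven by the H-2Kb promoter, which interferon induces. It was kept at 39.5 °C with no interferon-gamma in NeuroCult neural stem cell proliferation medium. The line 2xSCS2F10 came from the same layers of C57BL/6J mice and was kept at 37 °C in that medium with 5% chick embryo extract added. Each line is 1 clone with 2 libraries, so line, strain, transgene, temperature and medium cannot be told apart in any difference below. Nothing in the labels says that libraries came from separate cultures, so the spread behind each p-value is that between these libraries and may be technical. With poly(A)-selected RNA of whole cultures, fewer cells in S phase and less RNA per cell cannot be told apart either. The share of histone transcripts that carry a tail was not measured.

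Libraries held 48971264 and 44737008 counts in genes for 2xSCS70 and 40319972 and 45098902 for 2xSCS2F10 (replicates 1 and 2). All counts were even, so a fragment was taken as 2 counts. The 3 fragments used as a floor came to 0.109 and 0.123 CPM (counts relative to the size of the library, scaled by TMM) in 2xSCS70 and to 0.154 and 0.157 CPM in 2xSCS2F10. Of the markers of interstitial cell progenitors, Kit had 0 and 1 fragments in 2xSCS70 and 0 in both 2xSCS2F10 libraries, and 5 of the 6 could be tested, 2 of them higher in 2xSCS70 and 2 lower. Cd34 and Cd44 averaged 283 and 245.8 CPM in 2xSCS70 and 73.9 and 112.2 CPM in 2xSCS2F10. Ano1, the chloride channel by which these cells are recognised, averaged 2.42 CPM in 2xSCS70 and 24.1 CPM in 2xSCS2F10 (edgeR adjusted p = 0.00219), and Igf1r 104.8 CPM in 2xSCS70 and 155.4 CPM in 2xSCS2F10 (adjusted p = 0.0174), while Insr did not pass the test. The 6 genes summed to 720 and 682 CPM in 2xSCS70 and 463 and 402 CPM in 2xSCS2F10. The summed level of 4 smooth muscle markers was 712 and 667 CPM in 2xSCS70 and 4912 and 8744 CPM in 2xSCS2F10, all 4 lower in 2xSCS70. That of 3 mesothelial markers was 26.5 and 22.3 CPM in 2xSCS70 and 1700 and 1739 CPM in 2xSCS2F10, all 3 lower in 2xSCS70. Leukocyte, endothelial, neuronal and glial markers (2 genes each) summed to at most 3.90 CPM in any library, with the neuronal gene Elavl4 at 0 in all 4 and the leukocyte gene Ptprc at 0 in all but 1. The part of these differences in the histone results was not tested.

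The 3′ stem-loop, the element that sets these genes apart from other mRNAs, was looked for in GENCODE M21 transcripts (GRCm38) as arms of 6 bases around a loop of 4. It was found in the transcripts of 46 of the 68 members. Some of the other transcripts, such as those of Hist1h2ak (393 bases) and Hist1h4k (312 bases), are annotated no further than the coding length. An element past that end could not be found. Arms GGCTCT and AGAGCC were found in 34 members of types H1, H2A, H2B and H3. Arms GGCCCT and AGGGCC, and GGTCCT and AGGACC, were found in 10 and 2 members, all of type H4, and were added to the search after the H4 transcripts had been seen. The loop was TTTC in 35 members. The windows below, with arms and loop in capitals and 5 bases on each side, show the common form in 4 H1, H2A and H3 genes and the H4 forms for comparison. Coordinates are those of the part in capitals.
Hist1h1c, chr13:23739512-23739527, plus strand: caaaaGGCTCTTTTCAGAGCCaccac
Hist3h2a, chr11:58955172-58955187, plus strand: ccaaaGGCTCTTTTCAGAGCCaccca
Hist2h3c1, chr3:96247327-96247342, plus strand: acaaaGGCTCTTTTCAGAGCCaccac
Hist1h2ab, chr13:23751572-23751587, plus strand: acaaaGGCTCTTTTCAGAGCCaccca
Hist4h4, chr6:136803998-136804013, minus strand: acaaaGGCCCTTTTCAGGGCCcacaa
Hist1h4i, chr13:22040966-22040981, minus strand: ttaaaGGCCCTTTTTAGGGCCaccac
Hist1h4b, chr13:23757366-23757381, plus strand: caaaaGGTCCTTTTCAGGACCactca
The annotated transcript ended soon after this element in some members and ran on in others. In Hist1h2ab 11 bases followed it, in Hist1h4b 28, in Hist1h4i 330, in Hist1h1c 840, in Hist2h3c1 1167, in Hist3h2a 1643 and in Hist4h4 2445 bases. The element lay inside the deposited gene row for 27 members and outside it for 19.

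Few of the clustered genes gave many fragments. Of the 68 rows, 7 were at 0 in every library, 27 (those 7 included) stayed under the floor of 3 fragments in every library, and 15 reached it in all 4. Several of the rows at 0 overlapped other rows, as described below, so a 0 need not mean a silent gene. The floor was reached in both libraries by 19 members in 2xSCS70 and by 23 in 2xSCS2F10. All rows together held 1553 and 1606 fragments in 2xSCS70 and 2279 and 2665 fragments in 2xSCS2F10. Per length, 10 members averaged at least 1 RPKM over the 4 libraries (counts relative to coding length and library reads, as deposited). The highest mean RPKM over the 4 libraries was that of the linker histone gene Hist1h1c (23.4), followed by the H2B gene Hist1h2bc (12.3), the H2A gene Hist3h2a (3.71), the H2B gene Hist2h2be (1.52) and the H4 gene Hist1h4i (1.42). The 4 members with the most counts, Hist1h1c, Hist1h2bc, Hist3h2a and Hist2h2be, held 76.8% and 70.4% of the members' counts in 2xSCS70 and 83.9% and 85.6% in 2xSCS2F10. Those of testis-specific name, Hist1h1t, Hist1h2aa and Hist1h2ba, summed to at most 0.103 CPM in any library.

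Members with a longer annotated 3′ end held most of the counts, largely through Hist1h1c. The 23 members whose transcript ran on for at least 100 bases past the stem-loop, a limit set with the levels known, held 74.1% and 71.2% of the members' counts in 2xSCS70 and 73.2% and 84.8% in 2xSCS2F10. With Hist1h1c left out of the members altogether, they held 50.7% and 49.8% in 2xSCS70 and 48.0% and 58.9% in 2xSCS2F10. The 23 whose transcript ended within 100 bases of it held 1.80% and 2.74% in 2xSCS70 and 1.89% and 2.93% in 2xSCS2F10. The remaining 22, in which no stem-loop was found and which include Hist1h2bc and Hist2h2be, held 24.1% and 26.0% in 2xSCS70 and 25.0% and 12.2% in 2xSCS2F10. Since some of these transcripts are annotated no further than the coding length, this class does not mean that the genes lack the element. It holds long transcripts too, as those of Hist1h2bc and Hist2h2be are annotated to 1156 and 2620 bases. Summed per length, members running on stood at 25.4 ± 0.257 RPKM in 2xSCS70 and 46.3 ± 4.49 RPKM in 2xSCS2F10, and members ending at the stem-loop at 2.32 ± 0.631 RPKM in 2xSCS70 and 4.38 ± 1.27 RPKM in 2xSCS2F10 (SD, n = 2 each). Across the 46 members with a stem-loop, Spearman's rho between the bases annotated past it and the mean RPKM was 0.48, a description over genes of the same 4 libraries. In 19 of them the element lay outside the deposited row, as in Hist2h4, with 1257 bases past it and a row of 348. Counts and RPKM of such rows leave the tail out, which limits both the rho and the class shares. A poly(A) signal (AATAAA or ATTAAA) stood in the last 50 transcript bases of 17 members. Of these, 9 were among the 20 members that passed the filter on low counts and 8 among the 48 that did not.

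**Figure D1:**
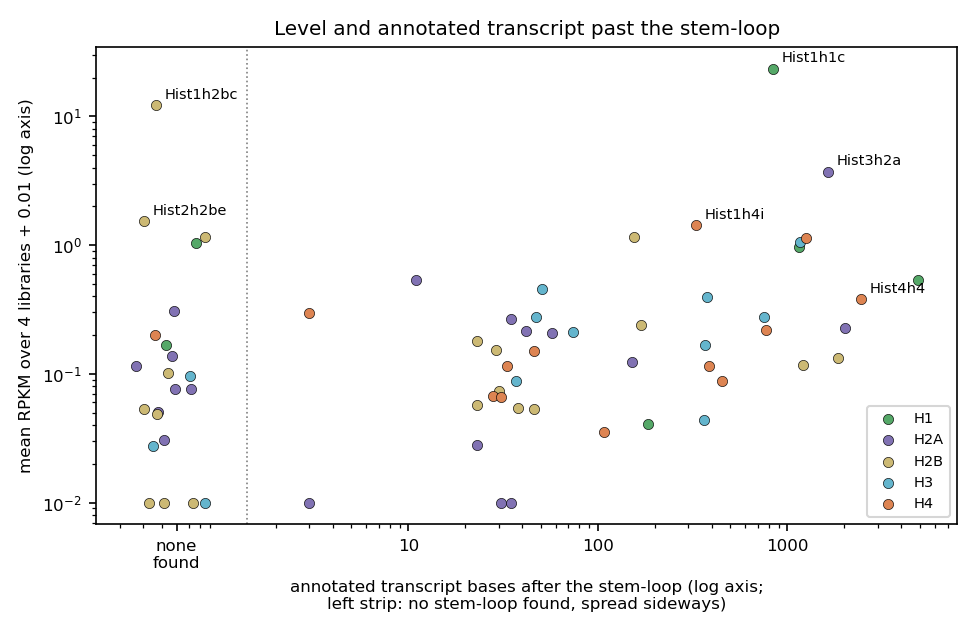
Mean deposited RPKM over the 4 libraries, with 0.01 added (log axis), against the annotated transcript bases after the stem-loop (log axis), with 1 point per member, coloured by histone type. Members in whose annotated transcripts no stem-loop was found are spread sideways in the left strip. Hist1h1c and Hist3h2a stand high at 840 and 1643 bases, Hist1h2bc and Hist2h2be lie in the left strip, and Hist4h4 at 2445 bases has a mean RPKM of 0.370.

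Near-identical copies limit what a row can say. In 30 members at least 50% of the 50-base stretches of the transcript also occurred in another gene's transcript, a length chosen here because the read length is not given. The rho between that percentage and the mean RPKM was -0.50 over the 68 members, so rows that share more sequence tended to be listed at lower levels. The sources used here do not say how reads that fit several copies were counted. The shared percentage was 0 in Hist2h2be and Hist2h2bb, 2.0 in Hist3h2a, 8.5 in Hist1h1c, 8.1 in Hist4h4, 30.6 in Hist1h2bc and 89.8 in Hist1h4m. Rows of 10 members overlapped another row, Hist1h4m and Hist2h2aa1 among them. The library kit does not mark strand, so their values are uncertain. Hist2h2aa2, Hist1h2ao, Hist1h2ap, Hist1h2bq and Hist1h2br also overlapped another row. They were at 0 in every library, with shared percentages from 88.5 to 100. The other rows at 0, Hist2h3b and Hist1h2ba, overlapped no row and shared 79.7% and 38.2%. Whether these zeros come from the counting or from the genes was not tested.

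Between the lines, 20 of the 68 members could be tested. Among them 1 rose in 2xSCS70 and 5 fell, by edgeR's quasi-likelihood test at an adjusted p under 0.05. The background over all 14496 genes tested was 40.6% called, 18.8% of genes higher and 21.8% lower, so the members were called no more often than other genes. The median log2 fold change was -0.96 over the 20 members and 0.02 over all tested genes. Values of the lines did not overlap in 16 of the 20 members and in 77.4% of all tested genes. The test ran on the deposited counts, in which a fragment counts as 2. With fragments in place of counts, 17 members could be tested, 1 called higher and 4 lower, against 20.2% and 22.9% of 13637 genes. All 6 member calls were lost without replicate 1 or without replicate 2 of 2xSCS70, with adjusted p between 0.0768 and 0.292. Of all genes, 1.66% and 1.81% were then called higher (248 and 270 genes) and 3.46% and 3.53% lower (516 and 526 genes), 5.12% and 5.34% in all.

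Among the linker histones, Hist1h1c (H1f2 in RefSeq) was the only called gene and fell. It had 26.7 and 28.2 CPM in 2xSCS70, against 56.6 and 88.3 CPM in 2xSCS2F10. Both 2xSCS70 libraries lay below both 2xSCS2F10 libraries, which themselves differed by more than the 2xSCS70 pair, and the level in 2xSCS70 was 2.64-fold lower (edgeR adjusted p = 0.0109, log2 fold change -1.40 with an SE of 0.24). Hist1h1d, added here after its values were seen so that all 4 tested H1 genes are given, had 0.580 and 1.60 CPM in 2xSCS70 and 3.19 and 3.20 CPM in 2xSCS2F10 (log2 fold change -1.55, edgeR adjusted p = 0.0666). Hist1h1e had 1.92 and 4.07 CPM in 2xSCS70 and 1.64 and 1.94 CPM in 2xSCS2F10, and the lines overlapped. Hist1h1b also overlapped, with 0.653 and 1.40 CPM in 2xSCS70 and 1.03 and 0.472 CPM in 2xSCS2F10. Their log2 fold changes were 0.74 (edgeR adjusted p = 0.227) and 0.44 (adjusted p = 0.573), and that of Hist1h1b changed sign when 2xSCS70 replicate 2 or 2xSCS2F10 replicate 2 was left out. In deposited RPKM, Hist1h1c averaged 14.6 in 2xSCS70 and 32.3 in 2xSCS2F10, while Hist1h1b averaged 1.25 in 2xSCS70 and 0.817 in 2xSCS2F10.

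Of the H2A genes, Hist3h2a was the main one and fell. It had 4.93 and 5.34 CPM in 2xSCS70, against 14.1 and 15.7 CPM in 2xSCS2F10. The replicates lay close together in both lines, and the level was 2.90-fold lower in 2xSCS70 (edgeR adjusted p = 0.00404, log2 fold change -1.54 with an SE of 0.18). This was the smallest adjusted p among the members. Hist1h2ab had 2 and 5 fragments in 2xSCS70 and 5 and 19 in 2xSCS2F10 (edgeR adjusted p = 0.107). Hist2h2aa1, whose row spans a second copy, had 0.109 and 0.411 CPM in 2xSCS70 and 0.411 and 0.682 CPM in 2xSCS2F10 (edgeR adjusted p = 0.274). Hist1h2ac, with a long annotated tail of 2010 bases, overlapped between the lines at 0.943 and 0.617 CPM in 2xSCS70 and 0.719 and 0.472 CPM in 2xSCS2F10 (edgeR adjusted p = 0.511). Hist1h2ak was not tested and had 2 and 10 fragments in 2xSCS70 and 2 and 0 in 2xSCS2F10, or 0.162 and 0.827 RPKM in 2xSCS70 and 0.202 and 0 RPKM in 2xSCS2F10. The lines overlapped, and only 2xSCS70 replicate 2 stood higher.

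Of the H2B genes, Hist2h2be and Hist3h2ba fell. Hist2h2be had 2.76 and 3.08 CPM in 2xSCS70, against 10.1 and 5.14 CPM in 2xSCS2F10. The 2xSCS2F10 replicates lay far apart, though both were above both 2xSCS70 libraries, and the level was 2.61-fold lower in 2xSCS70 (edgeR adjusted p = 0.0392, log2 fold change -1.38 with an SE of 0.38). This call was also lost with limma-voom (adjusted p = 0.051). Hist3h2ba, beside Hist3h2a on chromosome 11, had 1 and 0 fragments in 2xSCS70 and 5 and 10 in 2xSCS2F10 (edgeR adjusted p = 0.0274). The level in 2xSCS2F10 was 20.2 times that in 2xSCS70, with an exact 95% interval from 3.11 to 851 that covers counting error only. Hist1h2bc, the most abundant H2B gene, had 8.82 and 9.86 CPM in 2xSCS70 and 17.5 and 10.5 CPM in 2xSCS2F10, which did not overlap but did not pass the test (log2 fold change -0.58 ± 0.28 SE, edgeR adjusted p = 0.159). Hist2h2bb had 0.689 and 1.60 CPM in 2xSCS70 and 0.103 and 0.472 CPM in 2xSCS2F10 (log2 fold change 1.98 ± 0.80 SE, edgeR adjusted p = 0.106). The remaining 2 tested H2B genes, Hist1h2bg and Hist1h2be, also added after their values were seen, had log2 fold changes of -0.46 and -1.72 and adjusted p of 0.298 and 0.0698 by edgeR.

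Neither of the 2 tested H3 genes passed the test. Hist2h3c1 had 1.78 and 1.81 CPM in 2xSCS70 and 3.49 and 2.94 CPM in 2xSCS2F10. The lines did not overlap, and the difference missed the threshold (log2 fold change -0.84 ± 0.26 SE, edgeR adjusted p = 0.0554). Its near-copy Hist2h3c2 had 0.0726 and 0.452 CPM in 2xSCS70 and 0.668 and 0.997 CPM in 2xSCS2F10 (edgeR adjusted p = 0.158). Hist1h3b, which was not tested, had 2 and 0 fragments in 2xSCS70 and 4 and 15 in 2xSCS2F10, or 0.155 and 0 RPKM in 2xSCS70 and 0.386 and 1.24 RPKM in 2xSCS2F10. No H3 gene of the Hist1 cluster passed the filter, of 9 rows.

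The H4 genes were split. Hist4h4, the only member on chromosome 6, had 1.96 and 1.69 CPM in 2xSCS70, against 0.822 and 0.892 CPM in 2xSCS2F10. It was the only member that rose, 2.12-fold (log2 fold change 1.09 ± 0.31 SE, edgeR adjusted p = 0.0435), and its call was lost with DESeq2 (adjusted p = 0.0772), which called 43.6% of all genes. Hist1h4m had 1 fragment in each 2xSCS70 library and 5 and 6 fragments in 2xSCS2F10, and fell (edgeR adjusted p = 0.0217). The level in 2xSCS2F10 was 7.41 times that in 2xSCS70, with an exact 95% interval from 1.62 to 68.8, and this call was lost with DESeq2 (adjusted p = 0.0931) and with no filter (adjusted p = 0.0635). Hist1h4i had 0.871 and 0.740 CPM in 2xSCS70 and 1.34 and 1.05 CPM in 2xSCS2F10 (edgeR adjusted p = 0.239). Hist2h4 had 0.508 and 0.781 CPM in 2xSCS70 and 0.462 and 0.210 CPM in 2xSCS2F10 (edgeR adjusted p = 0.227). In both genes the lines did not overlap but the test was not passed.

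**Figure D2:**
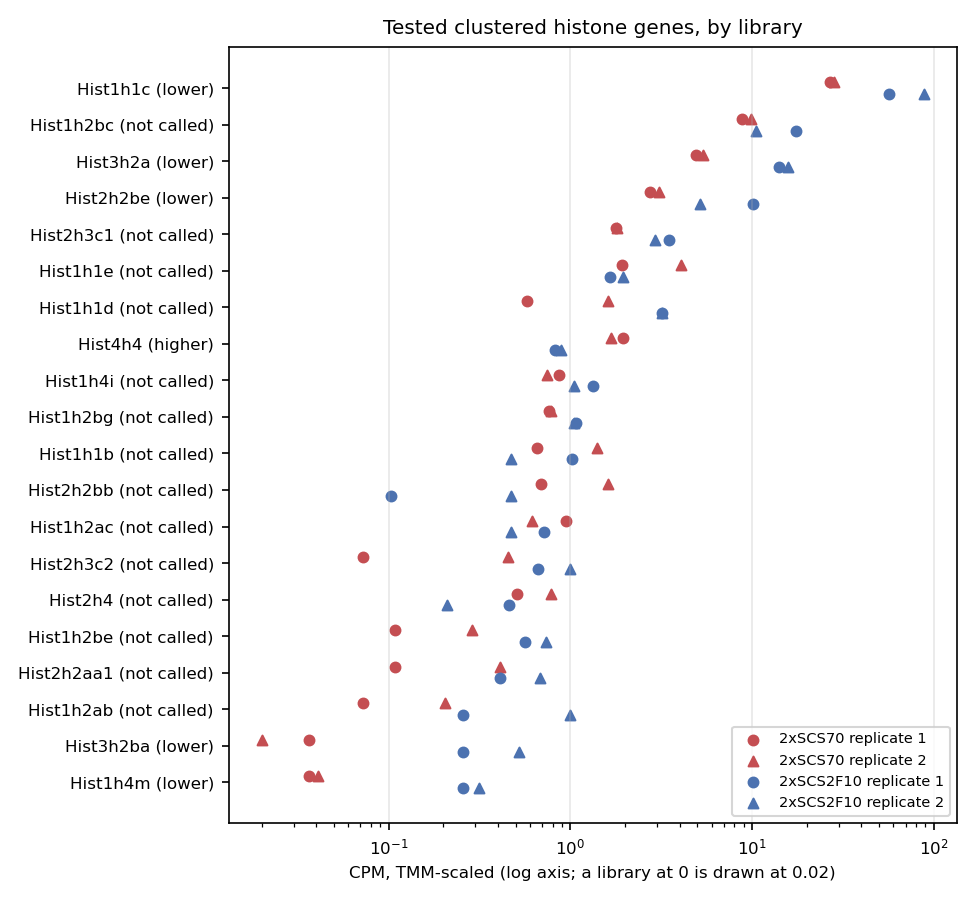
CPM of the 20 tested members in each library (TMM-scaled, log axis; a library at 0 is drawn at 0.02), ordered by mean level with the call beside the name, circles for replicate 1 and triangles for replicate 2. Hist1h1c stands at the top between 26.7 and 88.3 CPM, Hist4h4 is higher in both 2xSCS70 libraries, and the lines overlap in Hist1h1b, Hist1h1e, Hist1h2ac and Hist2h2aa1.

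Summed over all 68 rows, the clustered histone genes reached 56.3 and 66.0 CPM in 2xSCS70 and 117 and 140 CPM in 2xSCS2F10, a log2 ratio of -1.07. Sums are given with no test. The Hist1 cluster reached 47.0 ± 5.14 CPM in 2xSCS70 and 99.3 ± 18.2 CPM in 2xSCS2F10 (SD, n = 2 each, also for the following sums). The Hist3 cluster reached 5.18 ± 0.292 CPM in 2xSCS70 and 15.3 ± 1.26 CPM in 2xSCS2F10. The Hist2 cluster reached 7.22 ± 1.59 CPM in 2xSCS70 and 12.9 ± 3.40 CPM in 2xSCS2F10, but the sums of deposited RPKM turned the other way, at 5.97 ± 1.61 in 2xSCS70 and 5.61 ± 1.56 in 2xSCS2F10. Hist4 is the single gene Hist4h4 described above.

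By type, the linker histones made up most of the summed counts. H1 rows reached 32.7 ± 3.89 CPM in 2xSCS70 and 78.4 ± 22.3 CPM in 2xSCS2F10. H2A rows reached 7.08 ± 0.624 CPM in 2xSCS70 and 17.3 ± 1.40 CPM in 2xSCS2F10, and H2B rows 14.7 ± 1.76 CPM in 2xSCS70 and 24.5 ± 7.85 CPM in 2xSCS2F10. H3 rows reached 2.87 ± 0.416 CPM in 2xSCS70 and 5.12 ± 0.114 CPM in 2xSCS2F10. For these 4 types every 2xSCS70 library lay below every 2xSCS2F10 library in CPM. The H2B sums of 2xSCS2F10 lay far apart, at 30.1 and 19.0 CPM, and in deposited RPKM the H2B sums of the lines overlapped, at 15.3 ± 0.984 in 2xSCS70 and 19.1 ± 7.47 in 2xSCS2F10. They also overlapped as shares of all counts. H4 rows stood at 3.76 ± 0.141 CPM in 2xSCS70 and 3.14 ± 0.158 CPM in 2xSCS2F10, and without Hist4h4 their log2 ratio changed sign, to -0.24. Single genes carried much of the rest as well: the log2 ratio of H1 was -1.26 with Hist1h1c and -0.18 without it, and that of H2A was -1.29 with Hist3h2a and -0.28 without it. Leaving out the 4 members with the most counts, the other 64 rows summed to 13.1 and 19.6 CPM in 2xSCS70 and to 18.8 and 20.2 CPM in 2xSCS2F10, and the lines overlapped.

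**Figure D3:**
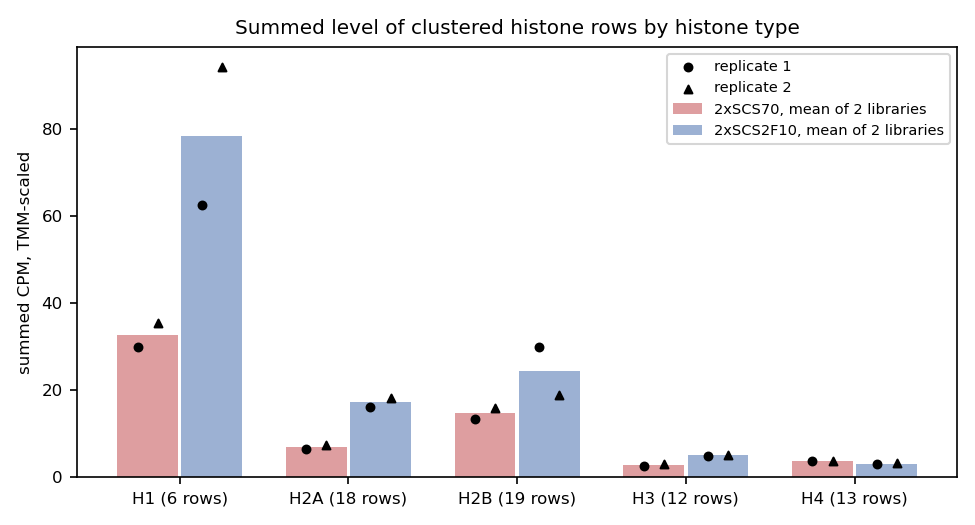
Summed CPM (TMM-scaled, linear axis from 0) of the clustered histone rows of each type, with bars for the mean of 2 libraries and points for the libraries. H1 stands at 32.7 CPM in 2xSCS70 and 78.4 CPM in 2xSCS2F10, and H4 is the type whose bar is higher in 2xSCS70.

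The promoters of the most abundant called members and of Hist4h4 are given, searched for elements known from histone promoters. TATAAA is read by the general transcription machinery, CCAAT by NF-Y, and the octamer ATTTGCAT by Pou2f1, which drives H2B genes in human cells. Of the members, 67 matched a single RefSeq gene, and 62 promoters of 61 genes were in the table (RefSeq on GRCm38.p6, 250 bases before and 50 after the start). Capitals mark CCAAT and ATTTGCAT on either strand, and TATAAA on the gene's strand, where present. Sequences run 5′ to 3′ on the strand of the gene.
Hist1h1c, chr13:23738557-23738856, plus strand: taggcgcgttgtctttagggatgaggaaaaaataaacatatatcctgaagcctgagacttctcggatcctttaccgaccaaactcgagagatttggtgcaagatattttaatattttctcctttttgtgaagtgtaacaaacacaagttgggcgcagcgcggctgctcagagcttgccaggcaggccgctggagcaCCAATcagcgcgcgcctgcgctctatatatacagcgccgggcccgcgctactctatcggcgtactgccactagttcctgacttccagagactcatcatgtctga
Hist3h2a, chr11:58954435-58954734, plus strand: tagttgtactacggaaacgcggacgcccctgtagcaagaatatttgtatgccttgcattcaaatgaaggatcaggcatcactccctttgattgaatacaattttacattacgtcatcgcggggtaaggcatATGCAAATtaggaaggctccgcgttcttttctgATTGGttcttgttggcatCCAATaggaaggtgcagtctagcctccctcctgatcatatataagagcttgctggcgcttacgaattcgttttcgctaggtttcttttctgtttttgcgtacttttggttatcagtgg
Hist4h4, chr6:136804382-136804681, minus strand: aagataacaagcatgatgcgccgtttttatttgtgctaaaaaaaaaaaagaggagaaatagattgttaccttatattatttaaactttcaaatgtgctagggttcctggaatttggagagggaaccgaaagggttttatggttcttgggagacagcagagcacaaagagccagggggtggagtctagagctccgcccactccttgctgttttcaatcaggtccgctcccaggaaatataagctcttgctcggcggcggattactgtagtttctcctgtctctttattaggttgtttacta
Hist1h1c held CCAAT. Hist3h2a held CCAAT on both strands and the octamer on the opposite strand. Neither of them held TATAAA, and Hist4h4 held none of these elements in its window. Over the 62 promoters TATAAA was found in 48.4%, against 8.3% of all 32851 promoters of the table. CCAAT on either strand was found in 85.5% of the members' promoters and 37.4% of all, and ATTTGCAT on either strand in 22.6% of the members' and 1.7% of all. Windows of neighbouring genes that start in opposite directions can overlap, so these promoters were not independent. The octamer was found in 7 of 17 H2A and 7 of 17 H2B promoters and in 0 of the H1, H3 and H4 promoters. CCAAT was found in 3 of 12 H4 promoters and in every promoter of the other types. A match describes letters, not a bound site.

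Of 33 tested genes for the synthesis and 3′ processing of histone mRNA 8 rose in 2xSCS70 and 1 fell, against 18.8% of all tested genes higher and 21.8% lower. Their median log2 fold change was 0.36, and 24 of the 33 did not pass the test. Npat, the coactivator that switches on histone clusters at entry into S phase, rose to 85.1 ± 1.69 CPM in 2xSCS70, against 51.0 ± 5.17 CPM in 2xSCS2F10 (edgeR adjusted p = 0.0120). Its kinase Cdk2 rose to 126.2 ± 1.50 CPM in 2xSCS70, against 61.7 ± 17.9 CPM in 2xSCS2F10 (edgeR adjusted p = 0.0202). Lsm11, a subunit of the U7 particle that cuts histone pre-mRNA, rose to 25.2 ± 2.77 CPM in 2xSCS70, against 11.5 ± 1.18 CPM in 2xSCS2F10 (edgeR adjusted p = 0.00749). Casp8ap2, another factor of histone 3′ end formation, rose 1.54-fold, and the octamer factor Pou2f1 rose 2.40-fold. The cap-binding subunit Ncbp1, its partner Srrt and the cleavage factor Cstf2 rose 1.71-fold, 1.77-fold and 1.57-fold. Lsm1, which takes part in histone mRNA decay, fell 1.44-fold, a call lost under several settings. The stem-loop binder Slbp averaged 96.1 ± 5.52 CPM in 2xSCS70 and 74.7 ± 11.2 CPM in 2xSCS2F10 and did not pass the test (edgeR adjusted p = 0.111). The other U7 subunit Lsm10, the U7-associated Zfp473, the exonuclease Eri1 and the H4 promoter factor Hinfp had log2 fold changes of -0.29, 0.39, 0.65 and 0.07 and did not pass it either (edgeR adjusted p from 0.0887 to 0.734), and those of Zfp473 and Hinfp changed sign without 2xSCS2F10 replicate 2.

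Clustered histones are made in S phase. Of 18 tested S phase genes 6 rose in 2xSCS70, 0 fell and 12 did not pass the test, against 18.8% of all tested genes higher and 21.8% lower, and their median log2 fold change was 1.04. Among those that rose were the replicative helicase subunits Mcm3 (3.32-fold), Mcm7 (2.33-fold), Mcm6 (2.30-fold) and Mcm4 (1.74-fold). The whole list summed to 4242 and 4217 CPM in 2xSCS70 and to 2814 and 1576 CPM in 2xSCS2F10, so that 2xSCS2F10 replicate 2 stood lowest. The clustered histone sum comes from poly(A)-selected RNA and does not show how the main, tailless form was ordered. It did not follow the order of the S phase list, since 2xSCS2F10 replicate 2 had the highest of the 4 sums. Hist1h1c was likewise highest there, whereas Hist1h2bc and Hist2h2be were lower there than in 2xSCS2F10 replicate 1. Without Hist1h1c, the other 67 rows summed to 29.6 and 37.85 CPM in 2xSCS70 and to 60.46 and 51.54 CPM in 2xSCS2F10, where replicate 1 was then highest. The calls of the 4 Mcm genes and of the named processing and replacement genes were lost without either 2xSCS70 replicate, as those of the members were.

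Replacement histones, encoded outside the clusters by genes with polyadenylated mRNA, stood far higher per length in these libraries. Poly(A) selection is not built to capture the main form of the clustered transcripts, so these values do not compare the total RNA of both kinds. The replacement H3 genes H3f3a and H3f3b summed to 355.6 ± 4.07 RPKM in 2xSCS70 and 297.2 ± 81.4 RPKM in 2xSCS2F10, and the 12 clustered H3 rows to 2.43 ± 0.170 RPKM in 2xSCS70 and 3.52 ± 0.0711 RPKM in 2xSCS2F10. H2afz, H2afv and H2afx summed to 357.4 ± 11.4 RPKM in 2xSCS70 and 264.3 ± 167 RPKM in 2xSCS2F10, and the 18 clustered H2A rows to 4.37 ± 0.604 RPKM in 2xSCS70 and 7.58 ± 0.166 RPKM in 2xSCS2F10. The gap was smaller for the linker histones: H1f0 and H1fx summed to 132.7 ± 11.1 RPKM in 2xSCS70 and 69.0 ± 17.5 RPKM in 2xSCS2F10, and the 6 clustered H1 rows to 17.6 ± 0.898 RPKM in 2xSCS70 and 34.7 ± 5.45 RPKM in 2xSCS2F10.

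Of 11 tested replacement histone genes 4 rose and 0 fell, against 18.8% of all tested genes higher and 21.8% lower, with a median log2 fold change of 0.51. H1fx rose 5.34-fold, to 12.3 ± 3.60 CPM in 2xSCS70, against 2.30 ± 0.809 CPM in 2xSCS2F10 (edgeR adjusted p = 0.00800). H1f0, the linker histone of slowly dividing and differentiated cells, rose 1.56-fold, to 337.7 ± 3.80 CPM in 2xSCS70, against 216 ± 27.1 CPM in 2xSCS2F10 (edgeR adjusted p = 0.0201). Both replacement H1 genes thus moved opposite to the clustered Hist1h1c. H2afv rose 2.20-fold and H3f3a 1.42-fold. H2afz, H3f3b, the damage-marking H2afx and the centromeric Cenpa did not pass the test (log2 fold changes 0.26, -0.15, -0.34 and 0.78), and the first 3 changed sign when a 2xSCS2F10 library was left out.

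**Figure D4:**
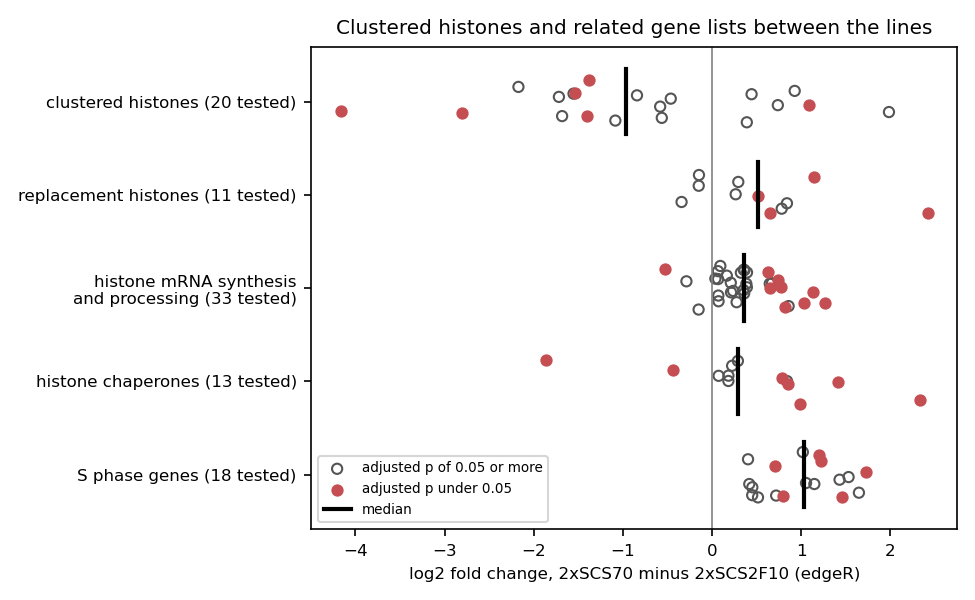
Log2 fold change (2xSCS70 minus 2xSCS2F10, edgeR) of each tested gene of 5 lists, filled where the adjusted p was under 0.05, with the list median as a line. The clustered histones have a median of -0.96, the replacement, processing and S phase lists medians of 0.51, 0.36 and 1.04.

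Because the main histone transcripts carry no tail, RNAs known to lack one were set beside them. The list held 10 rows, of which 7 were tested. Rn45s, the precursor of ribosomal RNA, took 2.22% and 5.92% of the counts in 2xSCS70 and 3.74% and 8.27% in 2xSCS2F10, higher in replicate 2 of both lines. Rmrp, the RNA of RNase MRP, was 5.06-fold and 3.96-fold higher in replicate 2 than in replicate 1 in 2xSCS70 and in 2xSCS2F10, and Rpph1, the RNA of RNase P, 4.15-fold and 1.90-fold. Rnu73b stood lower in replicate 2 of both lines, at 0.252 times replicate 1 in 2xSCS70 and 0.383 times in 2xSCS2F10. Rnu11 stood at 0.566 times replicate 1 in 2xSCS70 and 1.02 times in 2xSCS2F10, and Snora74a at 1.30 and 0.454 times. Of the 6 with fragments in all libraries, 3 were higher in replicate 2 of both lines, 1 was lower in both and 2 differed between the lines. The median log2 fold change between replicate numbers over the 7 tested genes was -0.30. That is the value of Terc, which had fragments in 2xSCS70 only, so it does not show whether the list had a common order. Of the 19 tested members above 0 in all libraries, 10 were higher in replicate 2 of both lines, 2 were lower in both and 7 differed between the lines. This was not counted over all tested genes, so it cannot be read as particular to the members. The sum of all members was also higher in replicate 2 of both lines, as given above, but without Hist1h1c it was lower in replicate 2 of 2xSCS2F10. Of the most abundant members, Hist1h1c differed between replicates by log2 ratios of 0.07 in 2xSCS70 and 0.64 in 2xSCS2F10, Hist3h2a by 0.11 and 0.15, Hist1h2bc by 0.16 and -0.73, and Hist2h2be by 0.16 and -0.97 (replicate 2 over replicate 1, 2xSCS70 first). Tested with the line as a covariate, 0 of the 20 members and 0 of all 14496 genes (0.00% called) differed between replicate numbers by edgeR, and 272 genes, or 1.88%, at an unadjusted p under 0.05. DESeq2 called 3 genes (0.0207%), and 0 members were called by any tool run.
Between the lines, Rn45s and Rmrp did not pass the test (edgeR adjusted p = 0.370 and 0.702). Rpph1 fell, with 3 and 11 fragments in 2xSCS70 and 28 and 52 in 2xSCS2F10 (edgeR adjusted p = 0.0312), a call also lost without either 2xSCS70 replicate. Terc, the telomerase RNA, had 7 and 5 fragments in 2xSCS70 and 0 in both 2xSCS2F10 libraries. The part of carried-over tailless RNA in the histone levels was not tested.

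**Figure D5:**
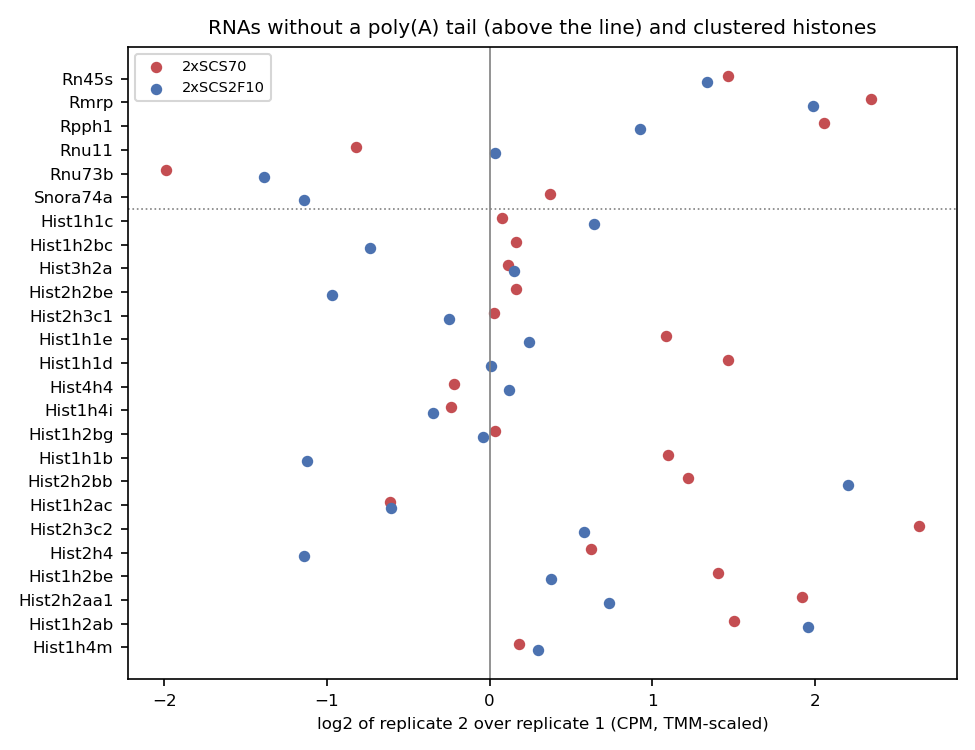
Log2 of replicate 2 over replicate 1 (TMM-scaled CPM) within each line for the 6 tested RNAs without a poly(A) tail that have fragments in all libraries, above the dotted line, and for 19 tested histone members in order of mean level below it; Hist3h2ba, at 0 in a library, is left out. Of the 6 RNAs 3 lie right of 0 in both lines and Rnu73b lies left of it, and of the 19 members 10 lie right of 0 in both lines, which was not counted over all genes.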

How the data were processed

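RNA of 4 libraries, 2 per line, was extracted (Qiagen miRNeasy) and prepared with an Illumina TruSeq mRNA v2 kit, per the labels' protocols. Such a kit selects polyadenylated RNA and does not mark strand. Per the submitters' processing notes, the tools for alignment and counting on mm10 (GRCm38) included HTSeq, Bowtie and TopHat2 2.0.6. Annotation, strand setting and handling of reads with several matches are not given in the sources used here. For each gene the authors deposited a raw count and an RPKM value, which relates the count to coding length and library reads, per the file headers. In the files of replicate 1, 25 names turned into dates were restored from the other tables.

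Lines were compared with edgeR 4.0.16 (R 4.3.3) and its quasi-likelihood test, run on all rows with TMM scaling and filterByExpr. Benjamini-Hochberg adjustment ran over the 14496 genes tested, with a threshold of 0.05. Fold changes are 2xSCS70 over 2xSCS2F10, with an SE of the size of the log2 fold change over the square root of F. The common biological coefficient of variation was 20.4%. The script was tested on simulated data. Intervals and floors cover counting error only. Alternatives were a replicate block, RLE and upper quartile scaling, other filters, fragments in place of counts, DESeq2, limma-voom, limma on log2 RPKM, removal of Rn45s and Lars2, and each library left out. Stem-loops and shared 50-base windows were read from GENCODE M21 transcripts, and promoters from RefSeq.

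The members and lists were chosen with earlier results of these data known. Members were named by a rule: the 3 of each type with the highest mean RPKM, called members with a mean of at least 1 CPM, tested members of Hist2, Hist3 and Hist4, the called member lowest and the uncalled member highest in CPM, and the 3 with the largest change each way between replicate numbers. Listed genes were named either whatever their values or as the called ones with the smallest adjusted p. Python 3.11.15 was used with matplotlib 3.10.9, scipy 1.17.1, pandas 2.3.3 and numpy 2.4.6.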

Additional observations from a re-analysis of the deposited data

How the results depend on the processing

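Members called higher in 2xSCS70 numbered 1, and 0 with DESeq2, with log2(RPKM + 1) and with a filter at a mean of 5 CPM, 2 with log2(RPKM + 0.1), and 0 to 4 with 1 library left out. Members called lower numbered 5, and 3 with the 5 CPM filter and with log2(RPKM + 1), and 0 to 11 with 1 library left out. Only 4 members passed the 5 CPM filter, Hist4h4 not among them, so that filter tested fewer genes and its lower counts are not lost calls. The fits with 1 library left out tested more members than the 20 of the main test. They tested 26 without replicate 1 of either line and 23 without replicate 2 of either line. Without a 2xSCS2F10 library the calls over all genes rose as well, so the rise cannot be read as particular to the members. With limma on log2(RPKM + 1) the calls of Hist2h2be, Hist4h4 and Hist3h2ba were lost (adjusted p = 0.18, 0.0867 and 0.0618). Over all genes 2727 were called higher (248 to 4809 with 1 library left out) and 3161 lower (516 to 4864 with 1 left out, 1883 with log2(RPKM + 0.1), 1534 with log2(RPKM + 1)). Of all calls 46.3% were higher, against 63.3% and 61.6% with RPKM and 32.5% and 33.9% without 2xSCS70 replicate 1 and 2. The median of all genes moved to 0.247 and 0.146 with RPKM and to 0.111 with upper quartile scaling. Same-numbered libraries hardly deviated together (r = 0.0475 over 11398 genes), so the libraries were taken to share only a number, although Rn45s, Rmrp and Rpph1 were higher in replicate 2 of both lines. With the replicate block 1 member was called higher and 5 lower, and 2381 and 2841 of all genes, but the members differed: Hist4h4 and Hist1h4m were no longer called (adjusted p = 0.0858 and 0.0557), and Hist2h2bb (0.0373) and Hist1h1d (0.0454) were. Summed levels, as log2 ratios with the share of counts, with summed RPKM and without the member with most counts, were for all members (-1.07) -0.77, -0.64 and -0.73, for Hist3 (-1.57) -1.27, -1.38 and -3.43, and for H2A (-1.29) -0.99, -0.80 and -0.28. With the share of counts and with RPKM, H2B (-0.73) gave -0.47 and -0.32, Hist4 (1.09) gave 1.38 and 1.33, and H3 (-0.83) gave -0.54 both times. With RPKM and without the leading member, Hist1 (-1.08) gave -0.69 and -0.46, and Hist2 (-0.84) 0.09, a reversal, and -0.32. H1 (-1.26) gave -0.18 without it, and H4 (0.26) gave 0.55 as a share and -0.24, a reversal, without it. Signs of uncalled genes turned without 2xSCS2F10 replicate 2 for Hist1h1b (-0.02), Zfp473 (-0.10), Hinfp (-0.05), H2afz (-0.20) and Rmrp (0.81), without 2xSCS2F10 replicate 1 for H2afx (0.33) and H3f3b (0.05), without 2xSCS70 replicate 2 for Hist1h1b (-0.20), without 2xSCS70 replicate 1 for Rmrp (0.26), and with both RPKM settings for H3f3b (0.10). With each library left out in turn these values ranged up to 1.12 for Zfp473, 0.17 for Hinfp and 0.93 for H2afz, and down to -0.81 for H2afx, -0.34 for H3f3b and -2.08 for Rmrp. The causes were not tested, except that a line with 1 library left takes its spread from the other line. Low counts limit the rest: 27 members never reached 3 fragments, and 48 were not tested.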

Other observations

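Histone chaperones and importers, which escort newly made histones to DNA, were measured beside the clustered genes. Of 13 tested genes 5 rose in 2xSCS70 and 2 fell, with a median log2 fold change of 0.29, against 18.8% of all tested genes higher and 21.8% lower. The CAF-1 subunits Chaf1a and Chaf1b rose. Chaf1a averaged 140.8 ± 6.62 CPM in 2xSCS70 and 78.0 ± 25.5 CPM in 2xSCS2F10, and Chaf1b 101.7 ± 1.51 CPM in 2xSCS70 and 38.3 ± 16.5 CPM in 2xSCS2F10 (SD, n = 2 each). Rbbp4, also a CAF-1 subunit, averaged 240.7 CPM in 2xSCS70 and 211.9 CPM in 2xSCS2F10 and did not pass the test (edgeR adjusted p = 0.234). Asf1b, a chaperone of H3 and H4, averaged 73.3 ± 5.07 CPM in 2xSCS70 and 14.6 ± 12.8 CPM in 2xSCS2F10. The importer Ipo4 fell to 47.2 ± 6.94 CPM in 2xSCS70, against 172 ± 10.1 CPM in 2xSCS2F10, and Daxx, a chaperone of the replacement histone H3.3, fell to 37.1 ± 0.928 CPM in 2xSCS70, against 50.3 ± 1.22 CPM in 2xSCS2F10. These genes were chosen after their values were seen.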
